A study of Homo sapiens with 8 samples.

Results

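The 10 fatty acid synthesis enzymes described here are ACLY, ACACA, FASN, SCD, ELOVL6, FADS1, FADS2, ACSS2, ME1 and LPIN1, chosen by name as enzymes that make, lengthen and desaturate fatty acids or supply and use their building blocks. All 10 had at least 1 named probe on the array, and all 10 were among the 16942 genes tested. Each gene was read from its brightest probe, by mean log2 signal over the 8 arrays, and ACACA and LPIN1 had a second, dimmer probe. Total RNA was measured on one-color human expression arrays in 4 groups of 2 arrays, namely OVSAHO with simvastatin, OVSAHO with L-778123, KURAMOCHI with simvastatin and KURAMOCHI with L-778123. OVSAHO and KURAMOCHI are established cell lines of ovarian cancer. Simvastatin inhibits HMG-CoA reductase, the enzyme that makes mevalonate, whereas L-778123 inhibits both farnesyl and geranylgeranyl transferases, which attach the prenyl groups made from mevalonate to proteins. The study set the drugs side by side to look for actions of a statin beyond the loss of protein prenylation. Untreated cells were not analysed here. Every difference is therefore between the drugs, and the arrays do not show which of them moved a gene. Drug concentrations and incubation times of these cultures are not given in the sources used here. In RNA of a whole culture, fewer cells of a type and less RNA per cell cannot be told apart.

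Fatty acids are built in the cytosol from acetyl-CoA, which ACLY releases from citrate and ACSS2 makes from acetate. ACACA turns acetyl-CoA into malonyl-CoA, FASN joins these units into palmitate with NADPH that ME1 helps to supply, ELOVL6 lengthens palmitate, and SCD puts a double bond into the product. FADS1 and FADS2 desaturate the longer polyunsaturated chains, and LPIN1 makes the diacylglycerol from which triglycerides and phospholipids are built. Most of these genes are known targets of the sterol regulatory element binding proteins (SREBPs), membrane-bound transcription factors that are cut free and move to the nucleus when sterols in the membrane of the endoplasmic reticulum run low. SREBP-1c, a product of SREBF1, is best known for fatty acid synthesis, and SREBP-2, the product of SREBF2, for sterol synthesis.

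Levels are log2 signals relative to the 75th percentile of all probes of the same array, so that 0 is that percentile, and a level of one probe is not compared with that of another probe. Between 51.8% and 57.5% of 58162 probes were well above background on an array, none was saturated, and the Pearson correlation between replicate arrays over the tested probes was 0.995 to 0.996. The labels do not say that replicate arrays came from separate cultures, so p-values measure only the spread between these arrays, which may be technical. The arrays lay on 1 slide with each line and drug in its own positions, so position and group cannot be told apart. All 10 markers fixed for ovarian epithelial cells (PAX8, WT1, MUC16, EPCAM, KRT7, KRT8, KRT18, CDH1, CDH6 and SOX17) were well above background on all 8 arrays, although MUC16 and CDH1 were low in KURAMOCHI. The markers CD3E, COL1A2, DCN, LUM, PECAM1, ADIPOQ and PLIN1 of leukocytes, fibroblasts, endothelium and adipocytes were not well above background in any group.

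The drugs separated the enzymes differently in the 2 lines. In KURAMOCHI, FASN, SCD, ELOVL6, FADS1, FADS2, ACSS2 and LPIN1 were higher with simvastatin than with L-778123, so 7 of 10 rose and 0 fell, where 17.1% of all genes tested rose and 18.4% fell. In OVSAHO, FASN and ACSS2 rose and ACLY, SCD, ELOVL6, FADS2 and ME1 fell, so 2 rose and 5 fell, where 26.5% of all genes rose and 27.5% fell. SCD, ELOVL6 and FADS2 fell in OVSAHO and rose in KURAMOCHI, a combination of calls that 1.44% of all genes had. FASN and ACSS2 rose in both lines, as did 10.6% of all genes. Here rose means higher with simvastatin and fell means higher with L-778123, in each case at a limma p under 0.05 after Benjamini-Hochberg adjustment over all probes tested. The median log2 difference of the 10 enzymes was -0.10 in OVSAHO and 0.69 in KURAMOCHI, against 0.014 and 0.012 over all genes. Few differences reached 2-fold. The limma call together with a fold change of at least 2, the fold threshold of the study's methods, left 0 enzymes in OVSAHO and 1, SCD, in KURAMOCHI, against 11.6% and 5.36% of all genes.

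**Figure D1:**
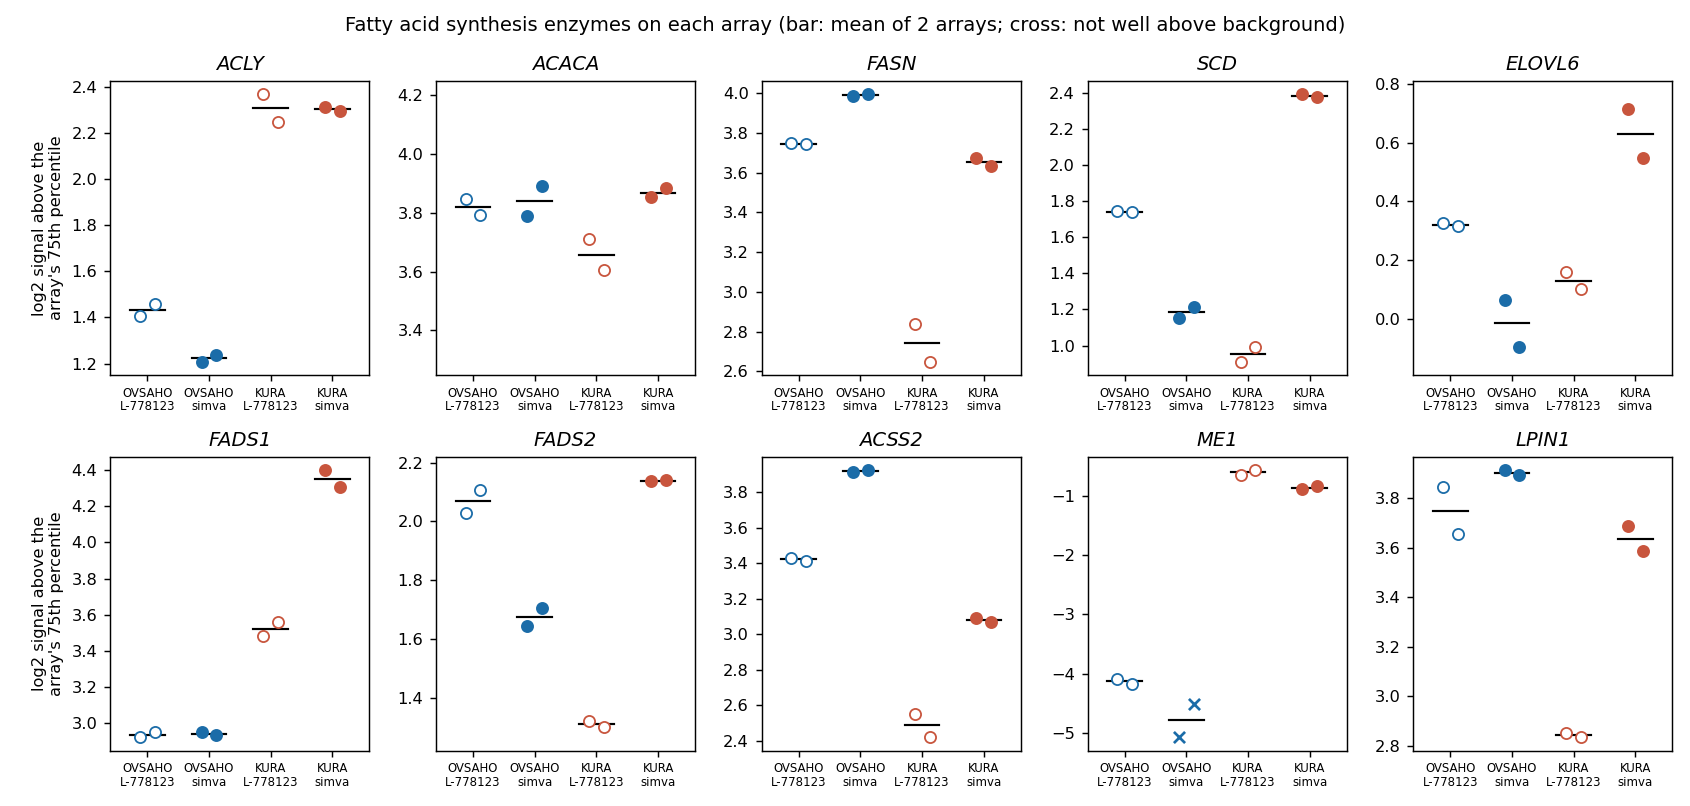
Level of each of the 10 enzymes on each of the 8 arrays, as log2 signal above the 75th percentile of the array (vertical axis, with its own scale for each gene), by cell line (KURA is KURAMOCHI) and drug (simva is simvastatin). Points are single arrays, lines are the means of 2 arrays, and crosses mark arrays on which the probe was not well above background. SCD sat between 1.15 and 1.21 with simvastatin and at 1.74 with L-778123 in OVSAHO, whereas in KURAMOCHI it sat between 2.37 and 2.39 with simvastatin and between 0.91 and 0.99 with L-778123.

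SCD, FADS2 and ELOVL6 gave opposite calls in the 2 lines. SCD, which makes the monounsaturated oleate and palmitoleate, was measured in OVSAHO at 1.15 and 1.21 with simvastatin and at 1.74 on both arrays with L-778123. The KURAMOCHI values were 2.39 and 2.37 with simvastatin and 0.91 and 0.99 with L-778123. The groups did not overlap in either line, and the order of the drugs was turned between them. SCD was thus 1.47-fold lower with simvastatin in OVSAHO (log2 difference -0.56, standard error 0.058, limma adjusted p = 8.37e-04) and 2.70-fold higher in KURAMOCHI (1.43, standard error 0.058, adjusted p = 1.58e-04). A difference at least as large as that of SCD was found for 29.2% of genes in OVSAHO and 2.43% in KURAMOCHI.

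FADS2, the desaturase that starts the conversion of dietary linoleate and linolenate, followed SCD. Its level in OVSAHO was 1.65 and 1.70 with simvastatin and 2.03 and 2.11 with L-778123. In KURAMOCHI it was 2.14 on both arrays with simvastatin and 1.32 and 1.30 with L-778123, so the drugs were again in opposite order in the lines. The log2 difference was -0.39 in OVSAHO (standard error 0.058, limma adjusted p = 0.00298) and 0.83 in KURAMOCHI (standard error 0.058, adjusted p = 5.49e-04).

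ELOVL6, which lengthens palmitate to stearate, the substrate of SCD, had levels nearer to the 75th percentile. It was measured in OVSAHO at 0.07 and -0.10 with simvastatin and at 0.33 and 0.32 with L-778123, and in KURAMOCHI at 0.71 and 0.55 with simvastatin and at 0.16 and 0.10 with L-778123. The arrays of the 2 drugs did not overlap in either line. The log2 difference was -0.34 in OVSAHO (standard error 0.086, limma adjusted p = 0.0225) and 0.50 in KURAMOCHI (standard error 0.086, adjusted p = 0.0092). The OVSAHO call of ELOVL6 passed under 15 of 20 other ways of processing or testing the arrays, fold thresholds not counted among them, and was lost without OVSAHO simvastatin replicate 2 or either OVSAHO L-778123 array, with its highest adjusted p at 0.134. The KURAMOCHI call was lost without KURAMOCHI L-778123 replicate 2 and under the methods' analysis of variance, with its highest adjusted p at 0.0785.

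FADS1, the desaturase that makes arachidonate, rose in KURAMOCHI and did not pass in OVSAHO. In KURAMOCHI it was measured at 4.40 and 4.30 with simvastatin and at 3.48 and 3.56 with L-778123, a log2 difference of 0.83 (standard error 0.062, limma adjusted p = 6.76e-04). In OVSAHO it was measured at 2.95 and 2.94 with simvastatin and at 2.92 and 2.95 with L-778123. The drug groups overlapped there, and the interval of the log2 difference ran from -0.15 to 0.16 at 95% confidence. FADS1 and FADS2 are neighbours on chromosome 11, and their RefSeq starts lie 599 or 800 bases apart on opposite strands, depending on the start of FADS2.

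Of the chain-building enzymes, FASN rose in both lines and ACACA passed in neither. FASN, the multifunctional synthase of palmitate, was measured in OVSAHO at 3.99 on both arrays with simvastatin and at 3.75 and 3.74 with L-778123. In KURAMOCHI it was measured at 3.67 and 3.63 with simvastatin and at 2.84 and 2.65 with L-778123, so simvastatin was the higher drug group in both lines without overlap. FASN was 1.19-fold higher in OVSAHO (log2 difference 0.25, standard error 0.076, limma adjusted p = 0.0414) and 1.88-fold higher in KURAMOCHI (0.91, standard error 0.076, adjusted p = 9.05e-04). The OVSAHO call of FASN was near the threshold and passed under 11 of 20 alternatives, with its highest adjusted p at 0.172 and a loss without any 1 of the OVSAHO arrays or of the KURAMOCHI simvastatin arrays.

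ACACA, the carboxylase that makes malonyl-CoA and sets the pace of synthesis, differed little between the groups. Its level was 3.79 and 3.89 with simvastatin and 3.85 and 3.79 with L-778123 in OVSAHO, and 3.85 and 3.88 with simvastatin and 3.71 and 3.61 with L-778123 in KURAMOCHI. The OVSAHO arrays overlapped, and the KURAMOCHI arrays did not. The log2 difference was 0.02 in OVSAHO (95% interval -0.15 to 0.19) and 0.21 in KURAMOCHI (standard error 0.068, limma adjusted p = 0.0633). The KURAMOCHI value passed the test under 6 of 20 alternatives. The second probe of ACACA had levels between -1.70 and -1.25 and log2 differences of the other sign, -0.23 in OVSAHO (adjusted p = 0.106) and -0.16 in KURAMOCHI (adjusted p = 0.26), and it did not pass either.

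Of the enzymes that supply acetyl-CoA, ACSS2 rose in both lines, and ACLY fell slightly in OVSAHO. ACSS2, the cytosolic and nuclear acetyl-CoA synthetase, was measured in OVSAHO at 3.91 and 3.92 with simvastatin and at 3.43 and 3.41 with L-778123. Its KURAMOCHI values were 3.09 and 3.07 with simvastatin and 2.55 and 2.42 with L-778123. The log2 difference of ACSS2 was 0.50 in OVSAHO (standard error 0.064, limma adjusted p = 0.0018) and 0.59 in KURAMOCHI (standard error 0.064, adjusted p = 0.002), and the arrays of the 2 drugs did not overlap. The difference between the lines did not pass the test (adjusted p = 0.493), and its 95% interval ran from -0.32 to 0.13.

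ACLY was measured in OVSAHO at 1.21 and 1.24 with simvastatin and at 1.41 and 1.46 with L-778123, which did not overlap. The KURAMOCHI arrays, at 2.31 and 2.29 with simvastatin and at 2.37 and 2.25 with L-778123, overlapped. It fell by 0.21 on the log2 scale in OVSAHO (standard error 0.064, limma adjusted p = 0.039), and its log2 difference in KURAMOCHI had a 95% interval from -0.16 to 0.15. The OVSAHO call of ACLY passed under 10 of 20 alternatives, with its highest adjusted p at 0.138, and it was lost without any 1 of the OVSAHO arrays or of the KURAMOCHI simvastatin arrays.

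ME1, the cytosolic malic enzyme, was far dimmer in OVSAHO than in KURAMOCHI. In KURAMOCHI it was measured at -0.89 and -0.84 with simvastatin and at -0.65 and -0.57 with L-778123, a log2 difference of -0.26 (standard error 0.179, limma adjusted p = 0.32). In OVSAHO it was measured at -4.08 and -4.18 with L-778123, and at -5.07 and -4.51 with simvastatin, where it was not well above background on either array. ME1 was thus at least 1.35-fold higher with L-778123 than with simvastatin in OVSAHO. With simvastatin it was at least 12.9-fold higher in KURAMOCHI than in OVSAHO. The limma adjusted p of 0.027 in OVSAHO belongs to the measured log2 difference of -0.66 and does not test the bound. The sign of the OVSAHO difference turned to 0.035 under normexp background correction, and the call passed under 13 of 19 alternatives, with a loss without either OVSAHO L-778123 array.

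LPIN1, a phosphatidate phosphatase that also acts as a transcriptional coactivator, rose in KURAMOCHI. It was measured there at 3.69 and 3.59 with simvastatin and at 2.85 and 2.83 with L-778123, a 1.73-fold difference (log2 difference 0.79, standard error 0.081, limma adjusted p = 0.00174). In OVSAHO it was measured at 3.91 and 3.89 with simvastatin and at 3.85 and 3.65 with L-778123, and the log2 difference of 0.15 did not pass the test (95% interval -0.05 to 0.36, adjusted p = 0.171). The second probe of LPIN1 was dim, and in KURAMOCHI with L-778123 it was not well above background on either array. That probe was at least 1.42-fold higher with simvastatin in KURAMOCHI. Its limma adjusted p of 0.0184 there belongs to the measured log2 difference of 1.02 and does not test the bound. The OVSAHO log2 difference of this probe, 0.52, did not pass (adjusted p = 0.1).

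**Figure D2:**
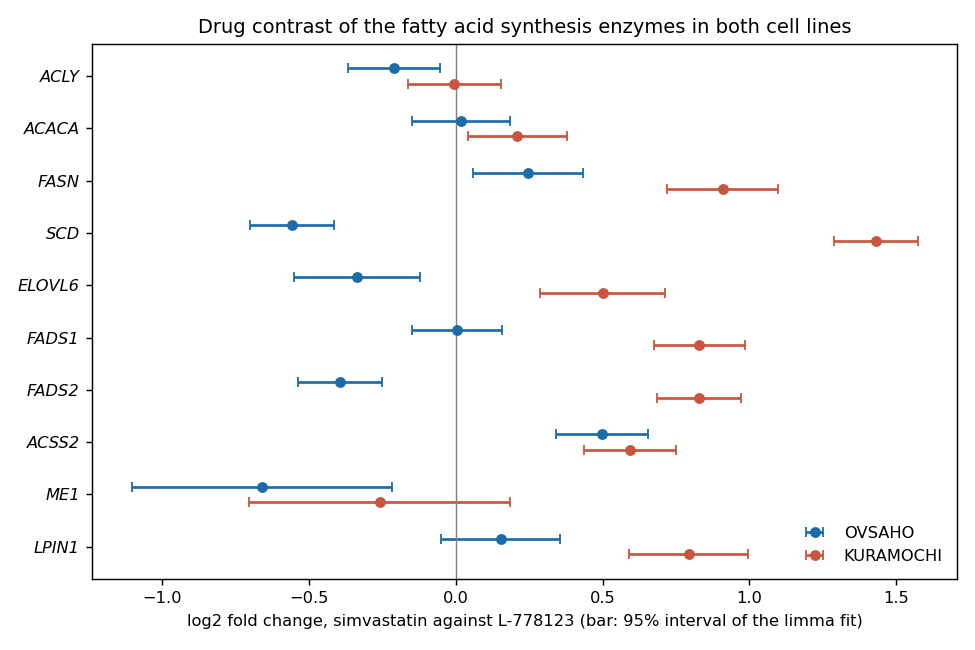
Log2 fold change of simvastatin against L-778123 (horizontal axis) for each of the 10 enzymes in OVSAHO and KURAMOCHI, with points for the limma estimate from 2 arrays per group and bars for its 95% interval. SCD, FADS2 and ELOVL6 lie on opposite sides of 0 in the 2 lines, at -0.56, -0.39 and -0.34 in OVSAHO and at 1.43, 0.83 and 0.50 in KURAMOCHI.

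Whether the drug contrast differed between the lines was tested as an interaction, the OVSAHO log2 difference minus that of KURAMOCHI. Of the 10 enzymes, 6 had a lower contrast in OVSAHO and 0 a higher one, where 14% of all genes were lower and 13.4% higher. The 6 were SCD (-1.99, standard error 0.081, limma adjusted p = 2.60e-04), FADS2 (-1.22, standard error 0.082, adjusted p = 7.70e-04), ELOVL6 (-0.84, standard error 0.122, adjusted p = 0.00771), FADS1 (-0.82, standard error 0.088, adjusted p = 0.00299), FASN (-0.66, standard error 0.107, adjusted p = 0.0106) and LPIN1 (-0.64, standard error 0.115, adjusted p = 0.0146). The remaining ACLY, ACACA, ACSS2 and ME1 did not pass, with values of -0.21, -0.19, -0.10 and -0.40. The median of the 10 was -0.65, against -0.0088 over all genes. The differences of SCD, FADS2, ELOVL6, FADS1 and FASN passed under each of the 19 alternatives that allow one, fold thresholds not counted, and that of LPIN1 under 17, with a loss without KURAMOCHI simvastatin replicate 1 and with no filter on dim probes.

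**Figure D3:**
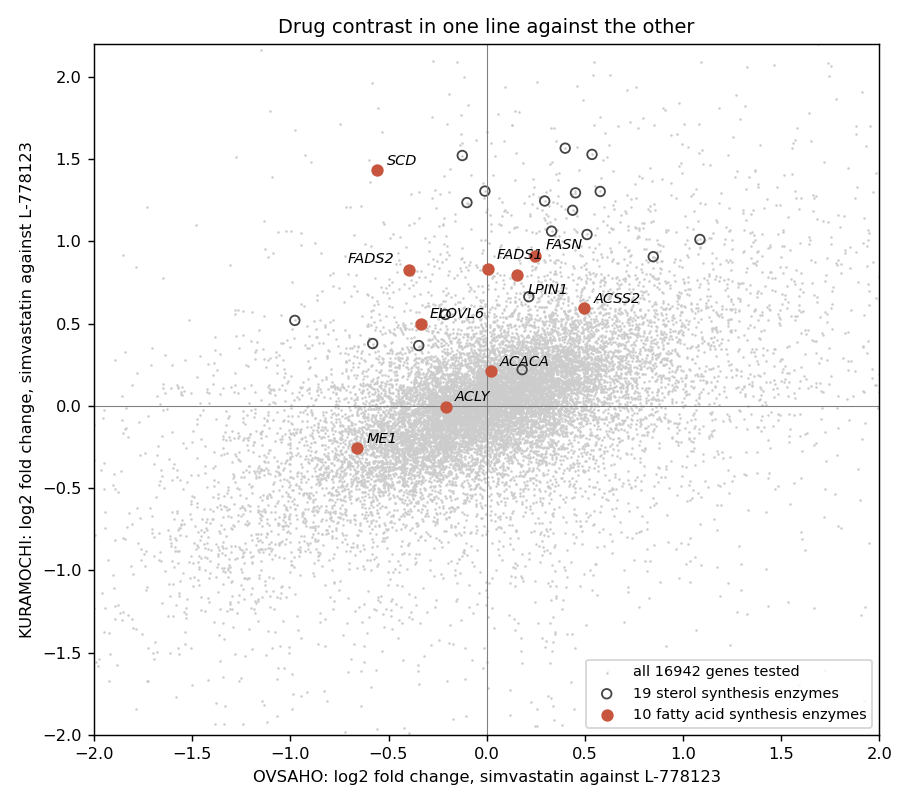
Log2 fold change of simvastatin against L-778123 in OVSAHO (horizontal axis) and KURAMOCHI (vertical axis) for all 16942 genes tested (grey), the 10 enzymes (filled, named) and 19 sterol synthesis enzymes (open circles). SCD, FADS2 and ELOVL6 lie in the upper left, lower in OVSAHO and higher in KURAMOCHI, FASN and ACSS2 lie in the upper right, and 524 genes lie outside the axes.

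The lines also differed in the levels themselves. Averaged over both drugs, 9 of 10 enzymes differed between OVSAHO and KURAMOCHI at an adjusted p under 0.05, as did 82.8% of all genes. ACSS2 (0.89), FASN (0.67), LPIN1 (0.59) and FADS2 (0.15) were higher in OVSAHO on the log2 scale. ACLY (-0.98), ELOVL6 (-0.23) and SCD (-0.20) were lower in OVSAHO, as were FADS1, by 1.99-fold, and ME1, for which OVSAHO with simvastatin gives only the bound above, and ACACA (0.07, limma adjusted p = 0.246) did not pass. Because SCD, FADS2 and ELOVL6 moved in opposite ways with the drugs, which line was higher depended on the drug: the mean level of SCD was 1.18 in OVSAHO and 2.38 in KURAMOCHI with simvastatin, and 1.74 and 0.95 with L-778123.

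How alike the enzymes were over the arrays is described here by Pearson correlations over 8 arrays after each gene was centred on its mean within each line. The arrays share their groups, so these values repeat the contrasts above in another form. SCD and FADS2 were most alike (r = 0.994), and FASN and LPIN1 (r = 0.974) and FADS1 and LPIN1 (r = 0.961) were close to them. ME1 and ACLY stood apart from several of the others, as ME1 had r = -0.757 with ACSS2 and r = -0.518 with FASN, and ACLY had r = -0.549 with ACSS2 and r = -0.198 with FASN. The genes outside the lists most like the mean of the enzymes were GLIS2-AS1 (r = 0.995), CA5B (r = 0.994), GPRC5B, ADAMTSL2 and TTC32 (each r = 0.993), and ADAMTSL2 had log2 differences of -0.42 in OVSAHO and 2.47 in KURAMOCHI.

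The sequence before the start of a gene is where SREBPs and their partners NF-Y and Sp1 are known to act at several of these enzymes. RefSeq starts of assembly GRCh38.p14 were found for 9 enzymes, with 16 starts, and the 250 bases before each were searched on both strands. The sequences of SCD, ELOVL6 and FADS2, which were called in opposite directions in the lines, and of ACSS2, which rose in both, are shown 5' to 3' on the strand of the gene, with CCAAT and GGGCGG or their reverse complements ATTGG and CCGCCC in capitals. FADS2 and ACSS2 have 2 starts each, and the one shown is that with GGGCGG for FADS2 and that with CCAAT for ACSS2. The window of the other FADS2 start holds neither motif, and that of the other ACSS2 start holds GGGCGG 3 times and no CCAAT.
SCD, chr10:100346983-100347232, plus strand: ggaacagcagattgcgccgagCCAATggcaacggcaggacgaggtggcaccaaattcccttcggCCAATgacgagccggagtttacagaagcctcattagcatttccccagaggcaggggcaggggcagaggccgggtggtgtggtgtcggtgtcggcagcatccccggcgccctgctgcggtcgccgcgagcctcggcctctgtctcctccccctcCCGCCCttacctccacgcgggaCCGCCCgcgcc
ELOVL6, chr4:110198616-110198865, minus strand: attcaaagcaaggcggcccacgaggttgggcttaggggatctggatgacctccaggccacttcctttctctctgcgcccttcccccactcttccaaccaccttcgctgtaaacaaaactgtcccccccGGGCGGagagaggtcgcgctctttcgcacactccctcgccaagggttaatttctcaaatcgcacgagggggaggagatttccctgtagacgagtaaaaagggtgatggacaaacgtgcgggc
FADS2, chr11:61816154-61816403, plus strand: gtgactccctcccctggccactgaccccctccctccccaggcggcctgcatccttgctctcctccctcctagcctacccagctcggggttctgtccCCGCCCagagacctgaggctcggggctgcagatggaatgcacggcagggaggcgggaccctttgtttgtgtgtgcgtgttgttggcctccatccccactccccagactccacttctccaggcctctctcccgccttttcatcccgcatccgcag
ACSS2, chr20:34874739-34874988, plus strand: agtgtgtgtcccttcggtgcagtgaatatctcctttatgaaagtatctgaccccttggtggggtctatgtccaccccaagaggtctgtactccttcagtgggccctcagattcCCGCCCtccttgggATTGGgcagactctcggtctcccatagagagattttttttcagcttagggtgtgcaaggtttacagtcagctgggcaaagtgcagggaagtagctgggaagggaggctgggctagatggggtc
The SCD sequence holds CCAAT 229 and 186 bases before the start and CCGCCC 33 and 11 bases before it. The ACSS2 sequence holds ATTGG 123 and CCGCCC 137 bases before the start, that of ELOVL6 holds GGGCGG 122 bases before it, and that of FADS2 holds CCGCCC 154 bases before it. Over all starts, GGGCGG, the core of the GC box that Sp1 binds, was found before 13 of 16 starts, against 42.6% of 35116 starts of all genes. All 9 enzymes had it before some start, for which no share per gene was computed. G and C made up 43.6% to 81.6% of the bases in the 16 windows. The share over all starts was not matched for this content, so the 2 shares do not show an excess particular to these enzymes. The windows of the 2 ACLY starts overlap and share matches of GGGCGG and of CCAAT, which are counted at both starts. CCAAT, the core of the motif that NF-Y binds, was found before 6 of 16 starts, in ACLY, ACACA, SCD and ACSS2, against 32% of all starts. The sterol regulatory element written as TCACNCCAC was found before 0 of 16 starts (0.883% of all starts), and the E-box CACGTG also before 0 (6.35% of all starts), which says only that these letters are not in these windows.

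Of the regulators, the SREBF1 probe and the SREBF2 probe moved in opposite ways. SREBF1 was measured in OVSAHO at 3.71 and 3.76 with simvastatin and at 4.78 and 4.90 with L-778123, and in KURAMOCHI at 4.18 and 4.07 with simvastatin and at 4.38 and 4.42 with L-778123. It fell in both lines, with log2 differences of -1.10 in OVSAHO (standard error 0.071, limma adjusted p = 1.62e-04) and -0.27 in KURAMOCHI (standard error 0.071, adjusted p = 0.0353), and the contrasts differed between the lines by -0.83 (adjusted p = 0.00431). A second, dimmer SREBF1 probe disagreed, with 0.12 in OVSAHO (adjusted p = 0.279), -0.66 in KURAMOCHI (adjusted p = 0.00325) and a difference of 0.78 between the lines (adjusted p = 0.00827). Both probes carry the same RefSeq accession in the files.

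SREBF2 was measured in OVSAHO at 1.66 and 1.67 with simvastatin and at 1.07 and 1.14 with L-778123, and in KURAMOCHI at 2.99 and 2.91 with simvastatin and at 2.33 and 2.32 with L-778123. It rose in both lines, by 0.56 in OVSAHO (standard error 0.057, limma adjusted p = 7.88e-04) and 0.63 in KURAMOCHI (standard error 0.057, adjusted p = 0.0012), and the contrasts differed by -0.07 (adjusted p = 0.601). INSIG1, an SREBP target whose product holds the SREBP complex in the endoplasmic reticulum, rose 2.03-fold in OVSAHO and 6.30-fold in KURAMOCHI. Of all 18 regulators in the list, 10 rose and 4 fell in OVSAHO, where 26.5% of all genes rose and 27.5% fell. In KURAMOCHI 7 rose and 1 fell, where 17.1% of all genes rose and 18.4% fell. The median log2 differences of the list were 0.29 in OVSAHO and 0.18 in KURAMOCHI. RXRA, the shared partner of nuclear receptors, rose in both lines (0.79 and 1.08), as did MLXIPL, a glucose-responsive factor for lipid synthesis genes, by 0.72 on the log2 scale in OVSAHO and at least 3.62-fold in KURAMOCHI, where it was not well above background with L-778123. All 3 NF-Y subunits, NFYA (-0.26), NFYB (-0.48) and NFYC (-0.28), fell in OVSAHO. Their KURAMOCHI values of -0.13, 0.02 and -0.14 did not pass. The difference between the lines passed for NFYB (limma adjusted p = 0.0429) and not for NFYA (0.311) or NFYC (0.243).

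Sterol synthesis, the branch fed by SREBP-2 and blocked by simvastatin at its committed step, also gave lower contrasts in OVSAHO. Of 19 enzymes, 17 rose and 0 fell in KURAMOCHI (17.1% and 18.4% of all genes), with a median log2 difference of 1.06. In OVSAHO 10 rose and 3 fell (26.5% and 27.5% of all genes), with a median of 0.30. The difference between the lines passed for 16 enzymes, each lower in OVSAHO, where 14% of all genes were lower and 13.4% higher. DHCR7, the enzyme of the last step to cholesterol, rose by 1.52 in KURAMOCHI and had a log2 difference of -0.12 in OVSAHO that did not pass. LSS, which closes the sterol rings (1.09 and 1.01), and SC5D (0.85 and 0.91) rose in both lines. FDPS, which makes farnesyl diphosphate (-0.58 and 0.38), and EBP (-0.35 and 0.37) fell in OVSAHO and rose in KURAMOCHI as SCD did.

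The other elongation and desaturation enzymes had medians below 0 in both lines. Of 13 tested, 2 rose and 9 fell in OVSAHO (median -0.39), where 26.5% of all genes rose and 27.5% fell. In KURAMOCHI 2 rose and 6 fell (median -0.31), where 17.1% of all genes rose and 18.4% fell. SCD5, the second stearoyl-CoA desaturase, fell in both lines by 0.88 and 1.04 on the log2 scale, in contrast to SCD. HACD1, a dehydratase of the elongation cycle, fell by 1.85 in KURAMOCHI and was at least 1.89-fold lower with simvastatin in OVSAHO, where it was not well above background with that drug. The elongase ELOVL5 (-0.70 and 0.35) fell in OVSAHO and rose in KURAMOCHI. ELOVL3 fell by 0.88 in OVSAHO and was at least 1.21-fold higher with simvastatin in KURAMOCHI, where it was well above background on only 1 simvastatin array. ELOVL1, which makes very long saturated chains, rose in OVSAHO and fell in KURAMOCHI (0.59 and -0.31).

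**Figure D4:**
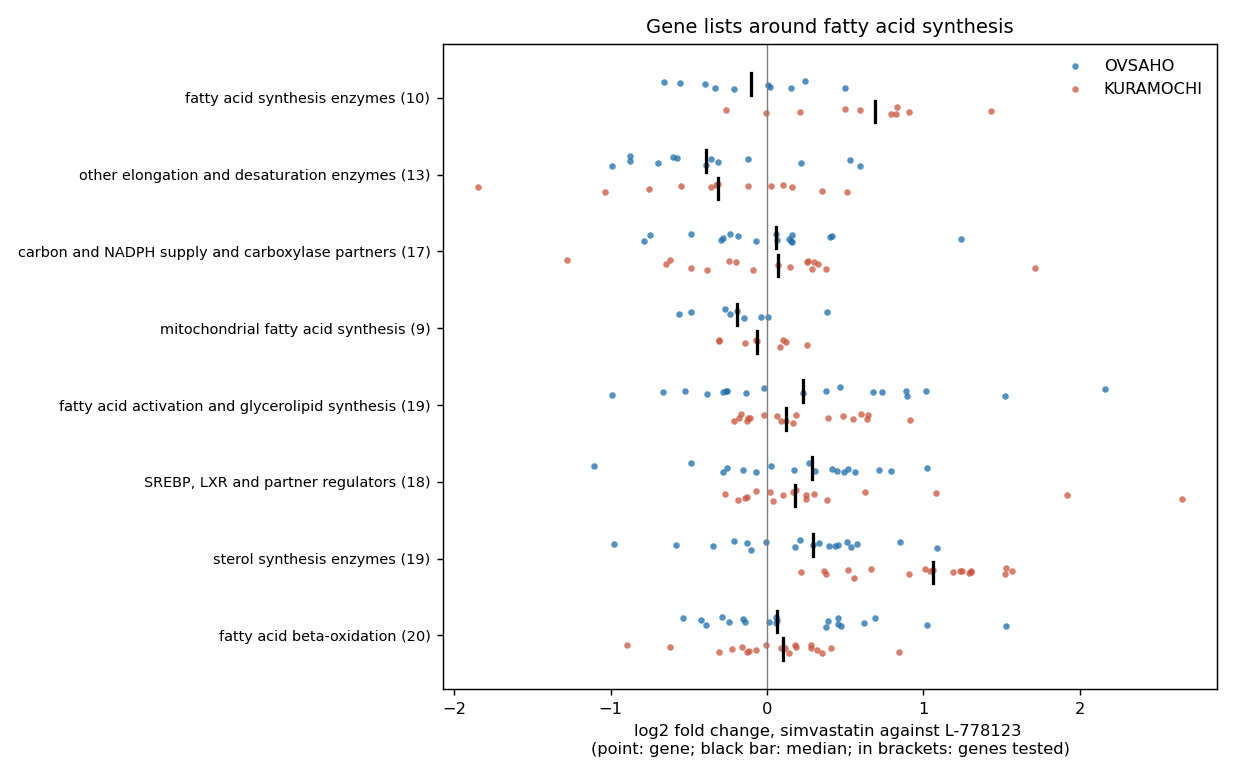
Log2 fold change of simvastatin against L-778123 (horizontal axis) for the 10 enzymes and 7 related gene lists (rows, with the number of genes tested in brackets), with 1 point per gene for OVSAHO and KURAMOCHI and a black bar at each median. The medians of the 10 enzymes lie at -0.10 and 0.69 and those of the sterol synthesis enzymes at 0.30 and 1.06, and the median of the other elongation and desaturation enzymes is below 0 in both lines.

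Genes that supply carbon and NADPH to the pathway moved both ways. Of 17 tested, 3 rose and 5 fell in OVSAHO, where 26.5% of all genes rose and 27.5% fell. In KURAMOCHI 4 rose and 5 fell, where 17.1% of all genes rose and 18.4% fell. The medians were 0.061 in OVSAHO and 0.072 in KURAMOCHI. ACSS1, the mitochondrial counterpart of ACSS2, rose 2.37-fold in OVSAHO (log2 difference 1.24) and 1.19-fold in KURAMOCHI (0.25). ME2, the mitochondrial malic enzyme, fell in both lines (-0.79 and -0.62), as did IDH2, the mitochondrial NADP-dependent isocitrate dehydrogenase (-0.49 and -1.28), while its cytosolic counterpart IDH1 fell in OVSAHO and rose in KURAMOCHI (-0.30 and 0.33). MID1IP1, which helps ACACA to polymerise, rose in KURAMOCHI (0.37). In the separate mitochondrial pathway of fatty acid synthesis, 1 of 9 genes rose and 3 fell in OVSAHO. In KURAMOCHI 0 rose and 2 fell, and the shares of all genes are those just given. NDUFAB1, the acyl carrier protein of this pathway, fell in both lines (-0.49 and -0.30).

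Downstream of synthesis, AGPAT2 and GPAT3 of glycerolipid assembly rose in both lines. Of 19 genes of fatty acid activation and glycerolipid synthesis tested, 9 rose and 6 fell in OVSAHO (median 0.23). In KURAMOCHI 6 rose and 0 fell (median 0.12). Of all genes tested, 26.5% rose and 27.5% fell in OVSAHO, and 17.1% rose and 18.4% fell in KURAMOCHI. AGPAT2, which adds the second acyl chain to glycerol phosphate, rose 4.48-fold in OVSAHO and 1.56-fold in KURAMOCHI, and GPAT3, which adds the first, 2.87-fold and 1.57-fold. PNPLA3, a lipid droplet protein, rose 1.89-fold in KURAMOCHI. It is also counted as higher in OVSAHO, but it was not well above background on any OVSAHO array, so no fold is given there. The acyl-CoA synthetases ACSL3 (-0.99) and ACSL4 (-0.52) fell in OVSAHO. In fatty acid beta-oxidation, 9 of 20 genes rose and 4 fell in OVSAHO and 6 rose and 3 fell in KURAMOCHI. The shares of all genes are those given above for glycerolipid synthesis, and the medians were 0.064 and 0.1. CPT1A, which controls the entry of fatty acids into mitochondria, rose in both lines (1.53 and 0.84), as did the carnitine carrier SLC25A20 (1.02 and 0.35), and HADH fell in both (-0.42 and -0.89). The brightest probes of ELOVL2 and ACSL6 were too dim to be tested, and HTD2 had no named probe.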

How the data were processed

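Total RNA of each sample was labelled and hybridized to 1 array of 8, and groups followed the labels. Per the labels and the methods, the authors read the scans with Feature Extraction 11.5.1.1 and deposited an intensity per spot that was background-subtracted within the array and not normalized between arrays. They also deposited a table of intensity values for the same arrays, which was used as an alternative and is quantile normalized, whereas the methods state the 75th percentile. Control and outlier spots were left out, each array's 75th percentile was subtracted from its log2 values, and a probe was tested where both arrays of some group had it well above background (33753 of 58162 probes). limma 3.58.1 (R 4.3.3; lmFit and eBayes) was run with 4 group means and Benjamini-Hochberg adjustment over these probes. Fold changes are thus on this scale, and "at least" marks a bound against the lowest signal above background. Promoter sequences came from RefSeq (GRCh38.p14) and symbols for 31104 of the 58162 probes from the same assembly. The test was tried on simulated data. Alternatives were other filters, normexp (offset 50), quantile normalization, another percentile, the authors' table, a floor, each line alone, a replicate block, eBayes with trend, the methods' two-way analysis of variance, fold thresholds, the median over probes and each array left out. Same-numbered arrays of different groups deviated from their group means with correlations of 0.00085 to 0.056, so the numbers were not treated as pairs.

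The 10 enzymes and all lists were chosen with earlier results of these data known, and 1 gene of the sterol list is not reported here. Besides the enzymes, up to 3 genes per list, direction and line with the largest change that passed were eligible to be named, with SREBF1, SREBF2, INSIG1 and the 5 genes most like the enzymes. A gene eligible in 1 line may be given with its values in both. NFYA was named after its values were seen. The number of arrays limits the precision. Sequences were searched in Python 3.11.15 and plots made with matplotlib 3.10.9.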

Additional observations from a re-analysis of the deposited data

Results flagged for a closer look

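The drug contrast differed between the cell lines, by the interaction test of limma over all probes, for 6 of the 10 enzymes and for INSIG1 and SREBF1 of the 3 regulators described array by array. In the whole list of 18 regulators, 1 had a higher and 4 a lower contrast in OVSAHO. Of all genes tested, 13.4% had a higher and 14% a lower contrast there. As the OVSAHO log2 difference minus that of KURAMOCHI, the value was -1.99 for SCD, -1.22 for FADS2, -0.84 for ELOVL6, -0.82 for FADS1, -0.66 for FASN and -0.64 for LPIN1. For SCD, FADS2 and ELOVL6 the arrays of the 2 drugs were in opposite order in the lines. INSIG1 differed by -1.63, where both lines rose. SREBF1 differed by -0.83 at its brighter probe, where both lines fell, and by 0.78 at its dimmer probe.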

How the results depend on the processing

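Of 587 values of single enzymes over 20 alternatives, fold thresholds apart, 532 kept their direction and side of the threshold, 12 that passed in neither fit turned their sign, 33 lost the call, 9 gained one and 1 called value turned its sign, ME1 in OVSAHO with normexp background correction (0.035). The OVSAHO counts moved most, from 2 higher and 5 lower to 1 and 2 with no filter on dim probes and under the methods' analysis of variance, to 3 lower with each line fitted alone, to 1 higher with the replicate block (4 lower), and to 0 higher and 1 lower at a fold of at least 1.5. A fold of at least 2, the fold threshold of the study's methods, was added as a setting for these counts after seeing the data. It left 0 higher and 0 lower in OVSAHO, 1 higher in KURAMOCHI and 2 lower in the difference between the lines. In KURAMOCHI 1 enzyme, ME1, fell with a floor at the lowest signal above background. The replicate block changed no call but those of ACLY and FASN in OVSAHO. The OVSAHO median of -0.10 turned to 0.0049 with the stricter filter, which leaves ME1 out, and to 0.0028 with normexp, and was -0.16 when a gene's probes were summarised by their median. The KURAMOCHI median of 0.69 was 0.79 with the stricter filter and 0.63 with normexp. When arrays were left out one at a time, 1 to 2 enzymes were higher and 2 to 5 lower in OVSAHO, 6 to 7 were higher and 0 lower in KURAMOCHI, and 5 to 7 had a lower contrast in OVSAHO, with a median difference of -0.70 to -0.60. The cause of these changes was not tested unless stated. SCD, FADS2 and ACSS2 passed in both lines under all 20 alternatives other than fold thresholds, and at a fold of at least 1.5 none of them kept its OVSAHO call. Signal limits ME1, which was within background in OVSAHO with simvastatin.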
